A study of Mus musculus with 2 samples.

Results

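The let-7 family of microRNAs (miRNAs) was examined in small RNA sequencing (smRNA-seq) of mouse embryonic stem cells (mESCs) and of fetal male germ cells. Members were taken by name, as each feature of the miRNA table whose name starts with Mirlet7, together with Mir98, which belongs to the same family. This gave 10 of 1638 features, of which 6 had at least 1 read in a library and 4 had none in either (both copies of let-7c, Mirlet7c-1 and Mirlet7c-2, and the pair Mirlet7a-1 and Mirlet7a-2). One library came from wild-type E14 mESCs, a mouse line. The methods describe feeder-free culture of E14 cells in N2B27 medium with LIF and 2i, a pair of inhibitors of MEK and GSK3, but the sources used here do not tie this library to that medium. The other library came from wild-type C57Bl/6J male germ cells at E15.5 (days of embryonic development). The labels call them primordial germ cells, the study's supplement calls them prospermatogonia, the name used here, and per the methods the embryos carried an Oct-4/GFP transgene. How many embryos were pooled is not given in the sources used here. With 1 library per condition, no test across conditions was possible, and cell type, culture, strain background and library cannot be told apart.

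The let-7 miRNAs are cut from hairpin precursors encoded at several loci, and their mature strands share a seed, the stretch of bases that pairs with target mRNAs. They are known for promoting differentiation and for silencing growth and pluripotency genes. In mESCs and early germ cells the RNA-binding protein LIN28 holds let-7 low by binding the loop of the precursor, often at a GGAG motif, and blocking its processing. The miRNAs of the Mir290 cluster, which dominate in mESCs, are known to act against let-7 in the control of self-renewal.

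The mature 5p sequences of the 10 members are shown. A read can be credited to a gene only where the mature strand it comes from is found at no other hairpin. The listed members hold 8 different 5p sequences, all 22 bases long, and all carry the same seed (bases 2 to 8, in capitals). The sequences are those of RefSeq (GRCm38.p6), in which all 10 members lay at the exact position of a hairpin.

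let-7i-5p: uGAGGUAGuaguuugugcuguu
let-7d-5p: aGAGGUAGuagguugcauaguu
let-7g-5p: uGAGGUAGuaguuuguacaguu
miR-98-5p: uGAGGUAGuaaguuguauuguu
let-7b-5p: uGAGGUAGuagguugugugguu
let-7f-5p: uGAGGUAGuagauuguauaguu
let-7a-5p: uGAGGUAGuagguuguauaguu
let-7c-5p: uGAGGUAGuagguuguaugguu

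Relative to let-7a-5p, with positions counted from 1 at the 5′ end, let-7c-5p differs by A19G and let-7f-5p by G12A. The sequence of let-7b-5p differs by A17G and A19G, that of let-7d-5p by U1A and U16C, and that of let-7g-5p by G12U and U18C. With G11A and A19U, miR-98-5p also differs at a pair of positions. The sequence farthest from let-7a-5p is let-7i-5p, with G12U, A17G, U18C and A19U. Of these sequences, let-7a-5p (Mirlet7a-1 and Mirlet7a-2), let-7c-5p (Mirlet7c-1 and Mirlet7c-2) and let-7f-5p (Mirlet7f-1 and Mirlet7f-2) are each held by 2 hairpins. The remaining 5 sequences, from Mirlet7i, Mirlet7d, Mirlet7g, Mir98 and Mirlet7b, are each held by 1 hairpin. For Mirlet7a-2, Mirlet7c-1 and Mirlet7f-2 the 3p sequence, from the other arm, is also held by 1 hairpin, so reads of that arm could be credited to them. The seed itself is found in 11 of the 1674 distinct mature sequences of RefSeq.

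The GGAG motif that LIN28 is known to bind was searched on the hairpin strand. It was present in 7 of the 10 members and absent from Mirlet7b, Mirlet7c-2 and Mir98, while 447 of 1005 mouse hairpins in RefSeq (44.5%) hold it. The hairpin of Mirlet7i, the member with the most reads, is shown with the motif in capitals, beside that of Mir98, which lacks these letters.

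Mirlet7i: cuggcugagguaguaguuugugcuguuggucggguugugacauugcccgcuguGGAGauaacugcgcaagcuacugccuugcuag
Mir98: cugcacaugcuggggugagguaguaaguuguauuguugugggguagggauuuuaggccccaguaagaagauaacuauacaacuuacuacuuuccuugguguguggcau

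The authors deposited 1 log2 value per feature and library, and in linear form every value above the lowest was a whole number of reads, so reads could be recovered. Read as RPM, reads scaled to a library of 1000000, the values put 1 mESC read at 2.22 RPM and 1 prospermatogonia read at 0.348 RPM, and the library totals at 449643 and 2869578 reads. Reads on miRNA features numbered 110455 in mESCs (24.6% of the library) and 155237 in prospermatogonia (5.41%). Because this share differed, each ratio between the libraries is given on both scales, as deposited (RPM of the whole library) and scaled to the reads on all miRNA features. The change of scale adds 2.18 to a log2 ratio of prospermatogonia over mESCs taken without a pseudocount, and less to ratios of low features taken with one. Where no read was found, up to 3 reads remain possible, a limit of 6.67 RPM for mESCs and 1.05 RPM for prospermatogonia. All intervals are 95% intervals (Wilson, unless stated) and, like these limits, cover counting error only.

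Both libraries held the marker miRNAs of their labelled cell type. The Mir290 and Mir302 clusters, the mESC list of 11 features, summed to 27271 reads in mESCs against 5052 in prospermatogonia, while a list of 11 X-linked male germ cell features had 11 reads in mESCs and 15350 in prospermatogonia.

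The listed let-7 features together were a small fraction of the miRNA reads in both libraries. Nearly all of these reads came from the 5 genes with a 5p sequence of their own. The sums given here for the family thus hold almost nothing of let-7a, let-7c and let-7f, whose reads may not have been counted. The 10 members held 273 reads (mESCs) and 272 reads (prospermatogonia), which is 0.247% (0.220 to 0.278) and 0.175% (0.156 to 0.197) of the miRNA reads. As deposited, the summed family was at 607 RPM in mESCs and 94.8 RPM in prospermatogonia, 6.41-fold higher in mESCs (5.42 to 7.57), with a log2 ratio of -2.67 at a pseudocount of 1 RPM. Among miRNA reads alone the difference was 1.41-fold (1.19 to 1.67), still higher in mESCs, with a log2 ratio of -0.50. This direction depends on which features are summed. With AC165361.1, the feature across from Mirlet7e on the other strand, the sums were 0.265% of the miRNA reads in mESCs and 0.617% in prospermatogonia, a log2 ratio of 1.22 (1.03 to 1.41) in favour of prospermatogonia. The equal read numbers thus came from libraries of unequal size. At the level of the prospermatogonia library, the mESC library would have held 42.6 let-7 reads. In bulk samples, fewer cells of a type and less RNA per cell cannot be told apart.

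Among the 10 listed members, Mirlet7i, on chromosome 10, supplied most of the reads in mESCs and the largest number in prospermatogonia. This ranking leaves out AC165361.1, across from Mirlet7e, which had 20 and 686 reads. Nor does it cover reads of let-7a, let-7c and let-7f that may not have been counted. Mirlet7i had 196 reads (436 RPM) in mESCs and 129 reads (45.0 RPM) in prospermatogonia. These are 71.8% (66.2 to 76.8) of the family's reads in mESCs and 47.4% (41.6 to 53.4) in prospermatogonia, so the intervals of the shares did not overlap. The hairpin (GRCm38 chr10:122985640-122985724, minus strand) lies in an exon of the transcribed pseudogene D630033A02Rik. Among all 1638 features it ranked 53 by reads in mESCs and 73 in prospermatogonia, and no other member ranked higher.

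Mirlet7d and Mirlet7g came next in both libraries. Mirlet7d had 22 reads (48.9 RPM) in mESCs and 60 reads (20.9 RPM) in prospermatogonia, 8.06% (5.38 to 11.9) and 22.1% (17.5 to 27.4) of the family. Mirlet7g had 31 reads (68.9 RPM) and 59 reads (20.6 RPM), 11.4% (8.12 to 15.7) and 21.7% (17.2 to 27.0) of the family. For both genes the share in prospermatogonia lay above the interval of the share in mESCs. Mirlet7d (chr13:48536012-48536114, minus strand) lies in an exon of the lincRNA 6720427I07Rik, and Mirlet7g (chr9:106178840-106178927, plus strand) in an intron of Wdr82, which encodes a subunit of a histone methyltransferase complex.

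The remaining members with reads were near the limit of these libraries. Mir98 had 15 reads (33.4 RPM) in mESCs and 11 (3.83 RPM) in prospermatogonia, 5.49% (3.36 to 8.87) and 4.04% (2.27 to 7.10) of the family. Mirlet7b had 8 reads (17.8 RPM) and 9 reads (3.14 RPM), 2.93% (1.49 to 5.67) and 3.31% (1.75 to 6.17) of the family. The shares of these 2 genes differed between the libraries by less than their counting error. Mirlet7f-2 had 1 read (2.22 RPM) and 4 reads (1.39 RPM), 0.366% (0.0647 to 2.05) and 1.47% (0.573 to 3.72) of the family. Mirlet7f-2 (chrX:151912346-151912428) and Mir98 (chrX:151913214-151913321), both on the plus strand, lie 785 bases apart in an intron of Huwe1, a ubiquitin ligase gene. Mirlet7b (chr15:85707319-85707403, plus strand) lies in an exon of Lncppara.

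**Figure D1:**
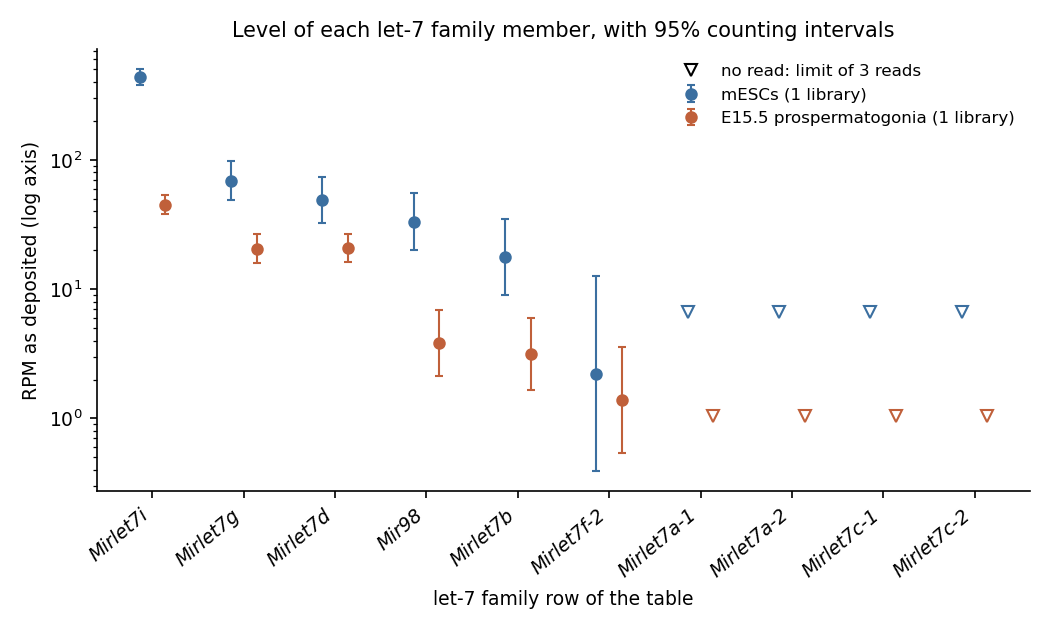
Level of each of the 10 let-7 family features in RPM as deposited (log axis), in 1 mESC library (blue) and 1 library of E15.5 prospermatogonia (orange), with 95% counting intervals. Mirlet7i is highest in both at 436 and 45.0 RPM, and open triangles mark the limit of 3 reads for the 4 features without a read, 6.67 RPM in mESCs and 1.05 RPM in prospermatogonia.

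The order of the genes was clear only in part. In mESCs Mirlet7i had 6.32 times the reads of Mirlet7g (4.34 to 9.21), the next in order. The steps from Mirlet7g to Mirlet7d (ratio 1.41, 0.821 to 2.42), from Mirlet7d to Mir98 (1.47, 0.769 to 2.80) and from Mir98 to Mirlet7b (1.88, 0.815 to 4.32) were within counting error. Mirlet7b had 8 reads to the 1 read of Mirlet7f-2, a ratio with an interval of 1.30 to 49.3. In prospermatogonia Mirlet7i had 2.15 times the reads of Mirlet7d (1.58 to 2.92), while Mirlet7d and Mirlet7g could not be ordered (ratio 1.02, 0.711 to 1.45). Mirlet7g in turn had 5.36 times the reads of Mir98 (2.85 to 10.1), below which the steps to Mirlet7b (1.22, 0.520 to 2.87) and Mirlet7f-2 (2.25, 0.735 to 6.89) were within counting error. These orders are of reads per gene. A mature miRNA read does not scale with the length of its hairpin, here 83 to 108 bases. Per base of hairpin, the order changed only in prospermatogonia, where Mirlet7d was at 0.869 times Mirlet7g and Mir98 at 0.962 times Mirlet7b.

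The make-up of the family, unlike its level, does not depend on how the libraries are scaled, but the shares depend on the features included. With AC165361.1 added, Mirlet7i supplied 66.9% of the reads in mESCs and 13.5% in prospermatogonia. The shares were then 7.51% and 6.26% for Mirlet7d, and 10.6% and 6.16% for Mirlet7g, no longer higher in prospermatogonia. Ratios between single members do not involve that feature. The ratio of Mirlet7i to all other members, like the shares, depends on whether it is included. Without AC165361.1, the reads of Mirlet7i were 2.55 times those of all other members together in mESCs and 0.902 times in prospermatogonia. The first ratio was 2.82 times the second (1.98 to 4.02, from the log odds ratio, as for the next values). For Mirlet7i against Mirlet7d the ratio was 8.91 in mESCs and 2.15 in prospermatogonia, 4.14 times higher in mESCs (2.42 to 7.09). Against Mirlet7g it was 6.32 and 2.19, 2.89 times higher (1.77 to 4.71). Thus Mirlet7i held a larger part of the let-7 reads in the mESC library relative to both genes. No such shift was detectable at this depth against Mir98 (13.1 and 11.7, ratio of ratios 1.11, 0.496 to 2.50) or Mirlet7b (24.5 and 14.3, ratio of ratios 1.71, 0.643 to 4.55). Nor was one detectable between Mirlet7g and Mirlet7d (1.41 and 0.983, ratio of ratios 1.43, 0.745 to 2.76).

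**Figure D2:**
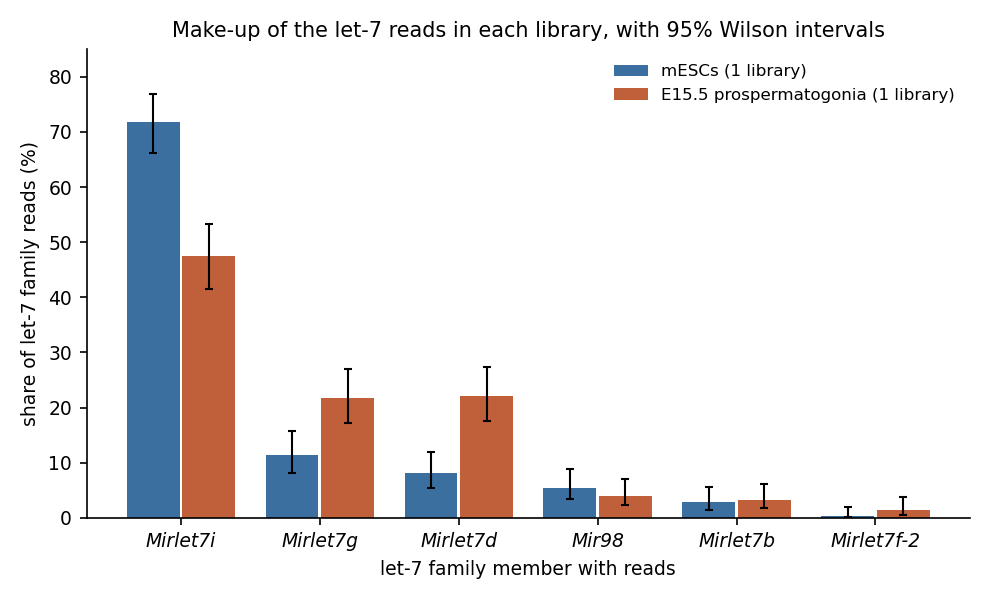
Share of the let-7 reads supplied by each of the 6 members with reads, in percent, in the mESC library (blue, 273 reads) and the prospermatogonia library (orange, 272 reads), with 95% Wilson intervals. Mirlet7i falls from 71.8% in mESCs to 47.4% in prospermatogonia, while Mirlet7d (8.06% and 22.1%) and Mirlet7g (11.4% and 21.7%) take larger shares of the 10 members' reads.

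As deposited, the 5 members with 10 RPM or more in a library were all lower in prospermatogonia. Mir98 and Mirlet7b passed this filter only through mESCs, so their direction was in part fixed by the filter. With 1 read worth 2.22 RPM in mESCs and 0.348 RPM in prospermatogonia, fewer reads pass the filter in mESCs. This bears on the counts and medians of members and of all features alike, on either scale. Mirlet7i was 9.70-fold higher in mESCs (7.77 to 12.1), Mir98 8.70-fold (4.07 to 18.6) and Mirlet7b 5.67-fold (2.26 to 14.2). Mirlet7g was 3.35-fold higher (2.18 to 5.16) and Mirlet7d 2.34-fold (1.44 to 3.80). For Mirlet7f-2, at 2.22 and 1.39 RPM, the ratio of 1.60 had an interval of 0.240 to 10.6. On the log2 scale with a pseudocount of 1 RPM, the values were -3.25 for Mirlet7i, -2.83 for Mir98, -2.18 for Mirlet7b, -1.70 for Mirlet7g, -1.19 for Mirlet7d and -0.43 for Mirlet7f-2. Most miRNA features moved the same way, so these values do not set the family apart. Of 203 features with 10 RPM or more in a library, 164 (80.8%) were at least 2-fold lower and 20 (9.85%) at least 2-fold higher in prospermatogonia, against 5 and 0 of the 5 members. The median log2 ratio was -2.18 for the 5 members and -2.52 for all 203 features. The median of the members is the value of Mirlet7b, a gene with 8 and 9 reads.

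Scaled to the miRNA reads, the members spread to both sides of equal levels. Mirlet7i remained lower in prospermatogonia, with a log2 ratio of -1.09 (interval of the ratio without pseudocount -1.41 to -0.77). Mirlet7d was higher at 0.94 (0.26 to 1.65), a direction opposite to that as deposited. For Mirlet7g (0.43, -0.18 to 1.06), Mir98 (-0.90, -2.03 to 0.16), Mirlet7b (-0.30, -1.65 to 1.01) and Mirlet7f-2 (1.18, -1.22 to 4.24) the interval held equal levels. On this scale 1 of the 5 members, Mirlet7i, was at least 2-fold lower and 0 were at least 2-fold higher, beside 39.9% and 20.2% of all 203 features. Median log2 ratios were -0.30 for the members, again the value of Mirlet7b, and -0.46 for all features. On the scale of miRNA reads, the lower sum of the family in prospermatogonia rested on Mirlet7i. Without it, a sum chosen after its values were seen, the other members summed to 77 mESC reads and 143 prospermatogonia reads, with a log2 ratio of -1.76 as deposited and 0.40 (0.0037 to 0.80) among miRNA reads.

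**Figure D3:**
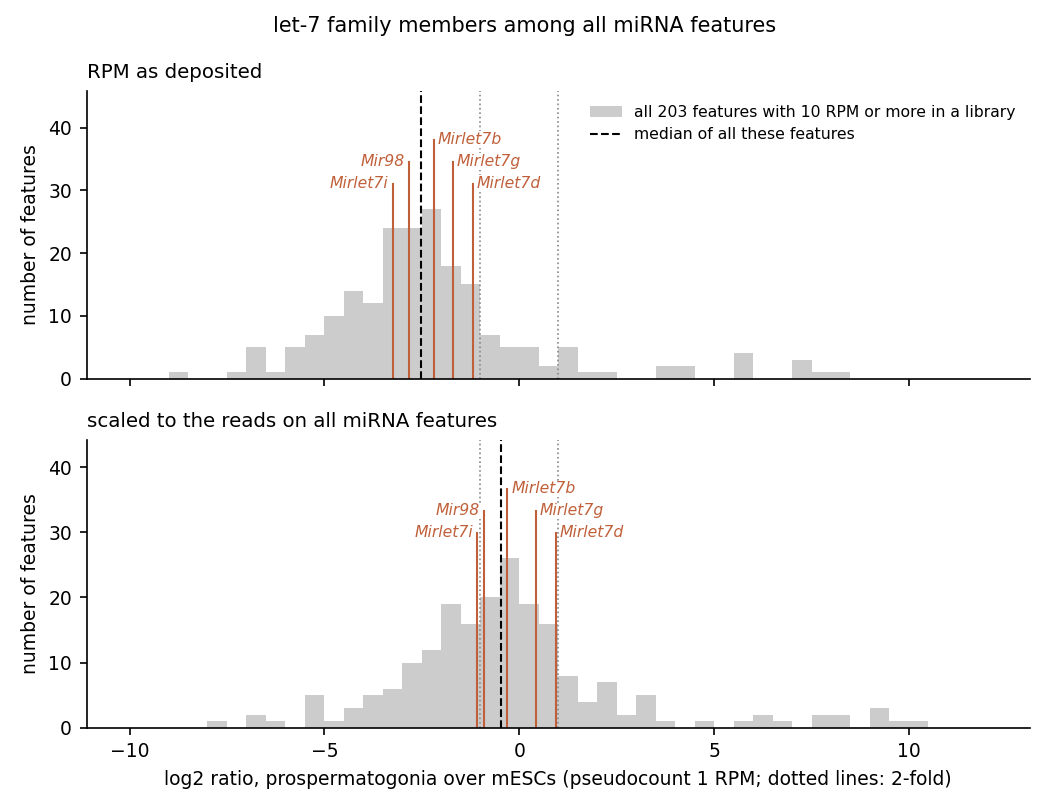
Histograms of the log2 ratio of prospermatogonia over mESCs (pseudocount 1 RPM) for the 203 features with 10 RPM or more in a library, as deposited (top) and scaled to the miRNA reads (bottom), with the 5 let-7 members as orange lines, the median of all features dashed and 2-fold limits dotted. Members run from -3.25 for Mirlet7i to -1.19 for Mirlet7d in the top panel, and from -1.09 to 0.94 for the same genes in the bottom panel.

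The 3 features outside the family with the log2 ratio nearest to that of the summed family, among those with 10 RPM or more in both libraries, were Mir27b, Mir5099 and Mir541. Mir27b had 1454 reads in mESCs and 1486 in prospermatogonia (log2 ratio -2.64), Mir5099 had 188 and 183 (-2.69), and Mir541 had 223 and 233 (-2.60). Among miRNA reads these ratios were -0.46, -0.53 and -0.43. Likeness here is over 2 libraries only.

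The 4 members without a read are the copies of let-7a and let-7c, and each shares a mature sequence with another hairpin. Mirlet7a-1 (chr13:48538179-48538272, minus strand) lies in the same lincRNA exon as Mirlet7d, 2064 bases from it, and Mirlet7a-2 (chr9:41536716-41536811, plus strand) in introns of 3110039I08Rik and Gm49317. Mirlet7c-1 (chr16:77599657-77599750, plus strand) lies in an intron of Mir99ahg, with Gm11146 on the other strand, and Mirlet7c-2 (chr15:85706603-85706697, plus strand) lies 621 bases from Mirlet7b in Lncppara. Within both pairs of neighbours, the gene with a mature sequence of its own had reads and the gene with a shared one had 0. Mirlet7f-2, the other member with a shared 5p sequence, had the fewest reads of those detected. The second let-7f gene, Mirlet7f-1, was not among the features by name, and AC147162.1, across from it on the other strand (chr13:48537825-48537921), had 0 reads in both libraries.

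The same split was present, less sharply, across miRNA features as a whole, a set that includes the let-7 family. The values that follow are thus not independent of the let-7 zeros. Of 494 features at the exact position of a RefSeq hairpin, 6 had no mature sequence listed for their gene and were left out, 70 shared a mature sequence with another hairpin and 418 did not. No read in either library was found for 40 of the former (57.1%) and 187 of the latter (44.7%), and over 100 reads for 3 (4.29%) and 79 (18.9%). Among features with reads, the median over both libraries was 6.5 and 26 reads. A shared sequence did not always go with few reads, since Mir92-1, of the Mir17 cluster, had 5244 reads in mESCs and 29587 in prospermatogonia. How reads with several matches were counted is not given in the sources used here, and its part in the values at 0 was not tested. The let-7a, let-7c and let-7f values are thus given per hairpin, and total levels of these mature miRNAs cannot be read from them.

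**Figure D4:**
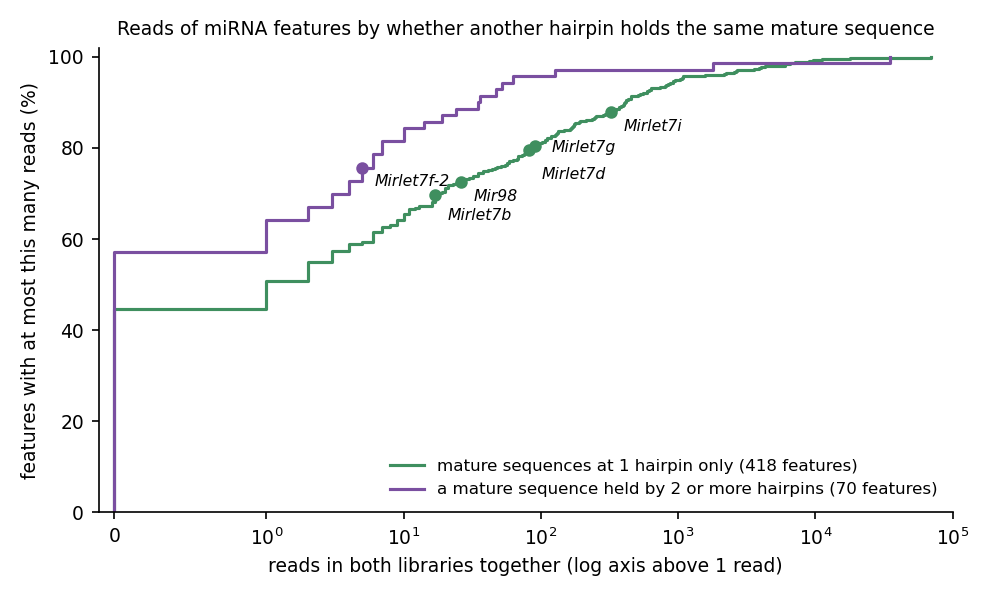
Cumulative share of miRNA features (percent) by their reads in both libraries together (log axis above 1 read), for 70 features that share a mature sequence with another hairpin (purple) and 418 that do not (green). At 0 reads the curves start at 57.1% and 44.7%. The let-7 members that share no mature sequence lie on the green curve from Mirlet7b to Mirlet7i, whereas Mirlet7f-2 lies on the purple one.

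Several let-7 genes are transcribed together with miRNAs of the Mir99 and Mir125 families, and these partners were not uniform. Mir99a, the partner of Mirlet7c-1 in Mir99ahg, had 1 read in mESCs and 8 in prospermatogonia, and Mir125b-2, of the same cluster, had 3 and 4, while Mirlet7c-1 had 0 in both. Mir100 had 28 reads and 4 reads, and Mir125b-1 had 50 and 7. Their log2 ratios were -4.72 (interval without pseudocount -6.93 to -4.03) and -5.03 (-6.62 to -4.40) as deposited. Among miRNA reads they were -3.11 (-4.75 to -1.85) and -3.22 (-4.44 to -2.21). Both genes belong to the locus that also holds Mirlet7a-2, which had no read in either library. Mir99b (607 and 2508 reads) and Mir125a (346 and 2527 reads), the partners of Mirlet7e, were the most abundant of the 6. As deposited their log2 ratios were -0.63 (interval without pseudocount -0.76 to -0.50) and 0.19 (0.03 to 0.36). Among miRNA reads both were higher in prospermatogonia, at 1.56 (1.43 to 1.68) and 2.38 (2.22 to 2.54), so the direction for Mir99b turned.

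The Mir290 cluster exceeded the summed let-7 members in both libraries, by a factor that differed between them. Its 7 members had 27035 reads in mESCs (24.5% of the miRNA reads) and 5048 in prospermatogonia (3.25%). These are 99.0 times and 18.6 times the let-7 reads, and the first factor was 5.34 times the second (4.50 to 6.33, from the log odds ratio, independent of scaling). Thus the listed let-7 members were lower relative to the Mir290 cluster in mESCs than in prospermatogonia, although their level as deposited was higher in mESCs. The size of these factors depends on the features summed, which the interval does not cover. With AC165361.1 added, the let-7 sums were 293 reads in mESCs and 958 in prospermatogonia, and let-7a, let-7c and let-7f reads may be missing from both.

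The summed markers of each other cell type were, like most miRNA features, lower in prospermatogonia as deposited. Log2 ratios as deposited and among miRNA reads were -5.12 and -2.95 for fibroblast and mesenchymal features, and -4.32 and -2.16 for blood. They were -5.25 and -3.14 for endothelial Mir126, and -1.53 and 0.64 for gonadal soma. Mir202 was higher in prospermatogonia on both scales (4.38 and 6.51). With 0 reads in mESCs (limit 6.67 RPM) and 19.9 RPM in prospermatogonia, the size of these values rests on the pseudocount. The read numbers that follow come from libraries of unequal size. The 6 fibroblast and mesenchymal features summed to 1441 reads in mESCs, with 3 of 6 over 3 reads, and to 262 reads in prospermatogonia, with 1 of 6 over 3 reads. Mir143 made up 1393 and 260 of these, Mir214 had 28 and 2 reads, Mir145 had 17 and 0, and Mir199b had 3 and 0. Mir199a-1 and Mir199a-2 had 0 reads in both, and like let-7a and let-7c they share mature sequences with other hairpins. Of 4 blood features, Mir142 had 400 reads and 124 reads, Mir451 had 0 and 1, and Mir144 and Mir223 had 0 in both. Endothelial Mir126 had 255 and 40 reads. Of the gonadal soma features, Mir202 had 0 and 57 reads and Mir140 had 280 and 558. The let-7 family is widely expressed in somatic cells, and the part of such cells in the let-7 values was not tested.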

How the data were processed

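The authors trimmed the smRNA-seq reads (Trim Galore 0.4.1 per the submitters' processing notes) and mapped them with Bowtie. The study's methods name piPipes and mm9, whereas the processing notes name GRCm38, and the deposited positions match GRCm38. The authors deposited log2 values per miRNA feature, read here as log2 RPM because the supplement states that unit for the study's RNA-seq values. The quantitation step, use of strand and counting of reads with several matches are not given in the sources used here.

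Linear values were divided by the value of 1 read, and 100% of those above the lowest were whole within 0.1 reads. Features without a read, entered as 0.9 reads (log2 values of 1.00 in mESCs and -1.67 in prospermatogonia), were set to 0. The log2 ratios used a pseudocount of 1 RPM, and counts of 2-fold differences used features with 10 RPM or more in a library. Shares carry Wilson intervals, ratios between libraries or genes the Wilson interval of a share of reads turned into a ratio, and ratios of ratios a log odds interval. These intervals use reads, so the values are not tests across conditions.

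All members were named, besides the partners of let-7 loci, the Mir290 cluster and the 3 features nearest in log2 ratio. Members and lists were chosen with earlier results of these data known. Sequences and hairpin positions came from RefSeq (GRCm38.p6) and overlapping genes from GENCODE vM21. Alternatives were scaling to the miRNA reads or to the median ratio, pseudocounts of 0.1 and 5, a 4-fold threshold, other filters, and the feature across from Mirlet7e. Sums without Mirlet7i, and the sum with that feature among miRNA reads, were added after the data were seen. Scripts were tested on simulated reads. Computations ran in Python 3.11.15 with scipy 1.17.1, statsmodels 0.14.6, pandas 2.3.3, numpy 2.4.6 and matplotlib 3.10.9. The mPGCLC library was not analysed here.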

Additional observations from a re-analysis of the deposited data

Results flagged for a closer look

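Mirlet7e is not among the features by name, but AC165361.1 lies across from it on the other strand (GRCm38 chr17:17830343-17830459). It had 20 reads in mESCs and 686 in prospermatogonia. The log2 ratio was 2.40 as deposited (interval without pseudocount 1.79 to 3.06) and 4.58 among miRNA reads (3.97 to 5.25). AC165361.1 stands out as a signal in a feature that the family's comparisons do not use. Its reads in prospermatogonia were 0.442% of the miRNA reads and 2.52 times those of the 10 let-7 members together. Since the use of strand is not given, reads of Mirlet7e and of a transcript on the other strand cannot be told apart, and the difference was not tested across replicates.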

How the results depend on the processing

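No paired analysis was possible because there was only 1 library on either side. The shares of miRNA reads in both libraries kept their values within their intervals with unread features summed as deposited or with only miRNA-named features below the line, but the share in prospermatogonia was 0.617% with the feature across from Mirlet7e. The summed log2 ratio was -0.50 scaled to the miRNA reads, -0.31 scaled to the median ratio, -0.96 with the feature across from Mirlet7e and -1.76 without Mirlet7i, and turned, among miRNA reads, to 0.40 without Mirlet7i and to 1.22 with the feature across from Mirlet7e. It moved by less than its interval with pseudocounts of 0.1 and 5. The median over members was -0.30 and -0.12 under these 2 scalings, -2.47 and -1.53 with the 2 pseudocounts, -1.94 with the feature across from Mirlet7e, and -1.94 over all members with a read. Of the 5 members, 1 was at least 2-fold lower in prospermatogonia under miRNA scaling, beside 39.9% of all 203 features. Under median scaling 0 were at least 2-fold lower and 1 at least 2-fold higher, beside 36.5% and 22.2% of all features. As deposited, 3 members were at least 4-fold lower. The share of all features at this threshold was not computed, so that count says nothing particular to the family. Under miRNA and median scaling the direction turned for Mirlet7d (0.94 and 1.13), Mirlet7g (0.43 and 0.62) and Mirlet7f-2 (1.18 and 1.35). Without a pseudocount the scalings move all features alike, by 2.18 and 2.37 on the log2 scale. With it, features low in prospermatogonia move less. Depth limits the smaller members most, with 1 read worth 2.22 RPM in mESCs.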
